A study of Mus musculus with 4 samples.

Results

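The c-Jun N-terminal kinases (JNKs) and the dual-specificity phosphatases that limit MAP kinases were followed in T29 cells, a mouse line from a thymic lymphoma, on Affymetrix arrays. Members were the probe sets whose only annotated symbol was 1 of 9 listed genes: the 3 JNK genes Mapk8, Mapk9 and Mapk10, and the 6 phosphatase genes Dusp1, Dusp2, Dusp4, Dusp5, Dusp6 and Dusp10. This gave 18 of 45101 probe sets, 11 for JNK genes and 7 for phosphatases, and all 9 genes were found. Cells in 2 samples received DMSO, the solvent, and cells in 2 samples received MRK003, a gamma-secretase inhibitor (GSI). The labels write its dose as 5 mM for 36 h, in a treatment text that is the same for all 4 samples, so the groups come from the sample titles. Both groups were the same line, in serum-containing RPMI medium; the labels do not say whether replicates were separate cultures. Any p-value here therefore rests on array-to-array spread that could be purely technical.

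The genes were chosen by the GSI minus DMSO differences already known from these arrays, among them that of Mapk10, together with their place in the JNK pathway. The values of the 9 genes are therefore given as a description, with no p-value of their own. Where one of their probe sets is said to have passed or not, this gives only its place in the fit over all probe sets, and nothing rests on it. Levels are the deposited log2 values made with RMA, and a difference is the GSI mean minus the DMSO mean on that scale, with the standard error (SE) of a limma fit. A feature passed the threshold at a Benjamini-Hochberg adjusted p under 0.05 over all features fitted. Levels of different probe sets were not set against each other, since each binds its target with its own strength.

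JNKs form a branch of the MAP kinase family that is switched on by stress, by cytokines and by antigen and costimulatory receptors. Upstream kinases activate them by phosphorylating a threonine and a tyrosine, and active JNK phosphorylates transcription factors such as c-Jun. Dual-specificity phosphatases remove both phosphates again, and since several of their genes are induced by MAP kinase signalling, they act as feedback brakes. Mapk8 (JNK1) and Mapk9 (JNK2) are expressed in most tissues including T cells, whereas Mapk10 (JNK3) is known mainly from brain, heart and testis. In thymocytes, JNK and ERK signals take part in the responses to the pre-T cell receptor and the T cell receptor.

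As a check of the treatment, the Notch targets Dtx1, Hes1, Nrarp and Ptcra were read, and 4 of 4 fell (limma, gene-level fit). T lineage markers were high, with a list median of 11.29 to 11.69 per array over 7 measured genes, although Cd2 lay below the array medians (4.86 to 4.89) on all 4 arrays. Of these 7, Cd247 rose by 0.81 and Thy1 by 0.53, and Cd3g fell by 0.47 (limma, gene-level fit). Of the markers of other cells, 4 of 5 for B cells, 3 of 6 for myeloid cells and 5 of 5 for stroma lay below the array medians on all arrays. None of these 16 markers of other cells passed the threshold, with 2 higher and 0 lower with an unadjusted p below 0.05. The arrays correlated at 0.9959 within DMSO, at 0.9970 within GSI, and at 0.9915 to 0.9940 between the groups, across probe sets.

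Mapk10 was the member that set the GSI arrays apart, so the sequences before its annotated starts are shown. Beside them stands that of Dusp1, the only other member promoter searched that held the cAMP response element marked below. The mean of Dusp1 differed little, though the probe sets with the highest mean of Mapk9 and Dusp5 differed less. Each is the 250 bases before a RefSeq start (GRCm38.p6). Mapk10 has 2 starts in the table, at chr5:103211335-103211584 and chr5:103058393-103058642, both on the minus strand, and Dusp1 lies at chr17:26508473-26508722, also on the minus strand. Capitals mark the cAMP response element (CRE) TGACGTCA and, in Dusp1, also the E-box CACGTG.
Mapk10, start 1: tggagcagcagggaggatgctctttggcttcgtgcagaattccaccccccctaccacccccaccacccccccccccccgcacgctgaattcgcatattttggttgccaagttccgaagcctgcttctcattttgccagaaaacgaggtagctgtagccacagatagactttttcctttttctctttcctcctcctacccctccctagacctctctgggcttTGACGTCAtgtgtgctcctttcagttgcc
Mapk10, start 2: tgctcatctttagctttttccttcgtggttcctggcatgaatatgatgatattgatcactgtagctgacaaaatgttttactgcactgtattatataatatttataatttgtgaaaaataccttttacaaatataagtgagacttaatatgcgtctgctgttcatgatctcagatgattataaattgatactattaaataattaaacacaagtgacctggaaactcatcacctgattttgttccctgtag
Dusp1: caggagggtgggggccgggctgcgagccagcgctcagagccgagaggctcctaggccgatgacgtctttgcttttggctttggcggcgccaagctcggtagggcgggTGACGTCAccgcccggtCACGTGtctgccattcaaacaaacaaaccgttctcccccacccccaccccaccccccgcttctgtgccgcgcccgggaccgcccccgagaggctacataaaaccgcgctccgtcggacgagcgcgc

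The CRE, a site read by CREB and ATF factors, lay 22 to 29 bases before the first Mapk10 start and 136 to 143 bases before the Dusp1 start. The second Mapk10 start had no match to any of the 4 motifs searched. These were the CRE, the AP-1 site TGANTCA, the E-box, and TGGGAA, the core bound by RBPJ, the DNA-binding partner of Notch. All were searched on both strands, and none of the matches in the members overlapped. Over 32851 promoters of the table, 1.55% held the CRE, 6.75% the AP-1 site, 6.02% the E-box and 21.6% the RBPJ core in the same window. Of 10 promoters of 8 member genes, 2 held the CRE, 0 the AP-1 site, 2 the E-box (Dusp1 and Dusp2) and 1 the RBPJ core. That core lay 202 to 207 bases before the Dusp2 start, in the reverse direction (TTCCCA). These are matches of letters only, and the arrays do not measure binding or which start was used.

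Of the 18 member probe sets, 2 were higher with GSI past the threshold and 0 lower, both for Mapk10. At an unadjusted p under 0.05 there were 6 higher and 0 lower (limma), where 8.17% of all probe sets were higher and 8.23% lower. Over all 45037 non-control probe sets in that fit, 0.948% were higher and 0.446% were lower past the threshold, 1.39% in all. The same 2 probe sets differed 2-fold or more, against 0.846% of all probe sets. In 12 of the 18 the GSI arrays lay wholly above or below the DMSO arrays, 8 above and 4 below, where 46.4% of all probe sets did so. The median difference was 0.11 over the members and -0.01 over all probe sets. Since the list was made with this comparison known, nothing is read from these shares.

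**Figure D1:**
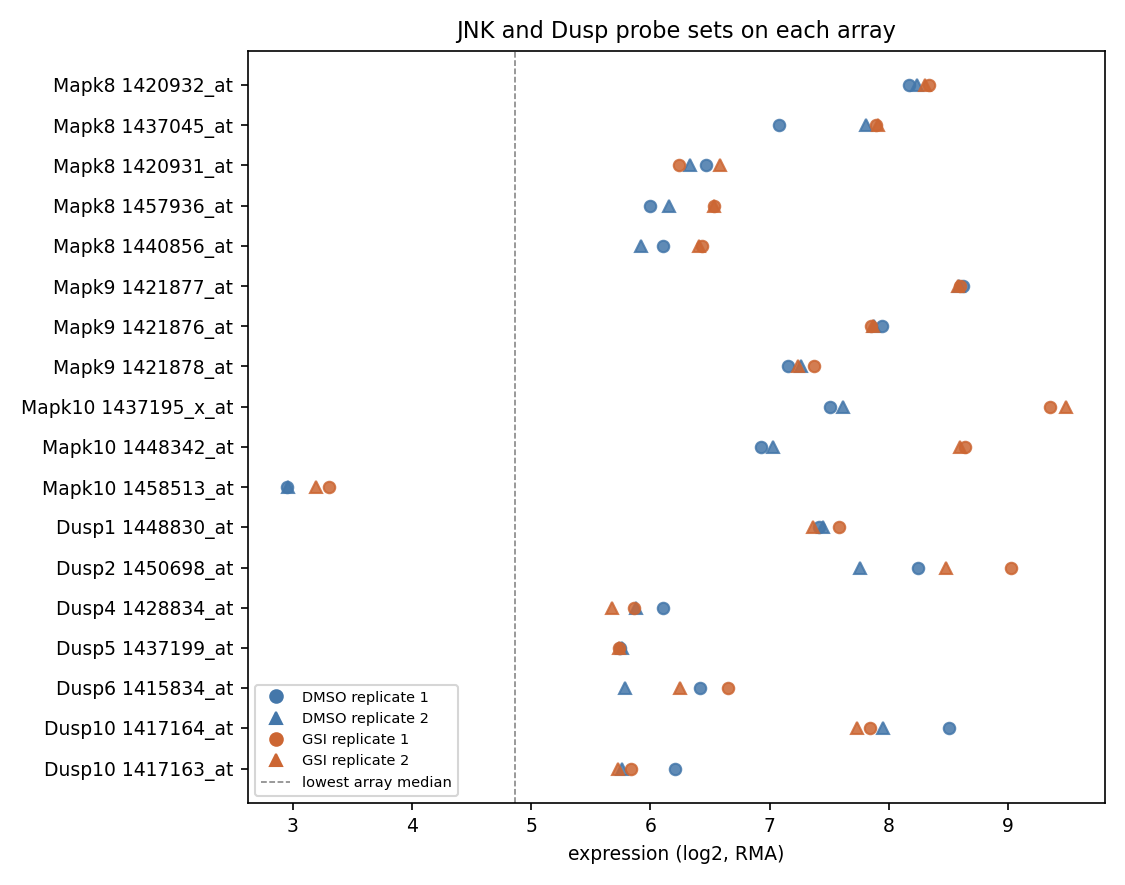
Log2 RMA level (x axis) of each of the 18 member probe sets (rows) on the 4 arrays; colour gives the group, shape the replicate number, and the dashed line the lowest array median (4.86). In the upper 2 Mapk10 rows both GSI arrays lie at 8.60 or more and both DMSO arrays at 7.62 or less, while the third Mapk10 row lies below the line on all arrays.

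Mapk10 encodes JNK3. Its probe set with the highest mean, 1437195_x_at, read 7.51 and 7.62 with DMSO and 9.36 and 9.49 with GSI. The groups were far apart, with 0.11 between the DMSO arrays and 0.13 between the GSI arrays. The means were 7.57 ± 0.08 and 9.42 ± 0.09 (SD, n = 2), a difference of 1.86 (SE 0.10), or 3.62-fold. In the order of all 18193 genes this was the ninth largest rise.

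The suffix x of that probe set marks probes that can also match other sequences, and the annotation used here gives it no accession. A separate Mapk10 probe set without such a suffix, 1448342_at, read 6.93 and 7.03 with DMSO and 8.64 and 8.60 with GSI. It too was far higher on both GSI arrays, by 1.64 (SE 0.09), or 3.11-fold. The third, 1458513_at, was dim, at 2.95 and 2.96 with DMSO and 3.31 and 3.20 with GSI, a difference of 0.30 (SE 0.09). All 4 of its values lay below the array medians, so the size of its difference is uncertain, and it did not pass.

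The 2 Mapk10 calls needed all 4 arrays. Leaving out DMSO replicate 1, DMSO replicate 2, GSI replicate 1 or GSI replicate 2 left a single array in 1 group. No probe set of any gene then passed in limma, so the loss of these calls is not particular to Mapk10. The difference of 1437195_x_at stayed between 1.79 and 1.92 and that of 1448342_at between 1.59 and 1.69.

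Mapk10 is known best from neurons, so markers of those cells were read as well. Of 8 neuronal markers, 5 lay below the array medians on all 4 arrays, among them Snap25 at 2.15 to 2.42. The microtubule genes moved in opposite directions: Tubb3 rose by 0.51 (limma, adjusted p = 0.0455) and Map2 fell by 0.77 (limma, adjusted p = 0.0339), neither passing when every probe set was tested. The summed linear level of the 8 genes was 376 and 334 with DMSO and 373 and 355 with GSI, so the groups overlapped. Brighter probe sets weigh more in such a sum, so it says little about each of the 8 markers. RMA values have no true 0, and the part of these markers in the Mapk10 difference was not tested.

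Mapk8, encoding JNK1, had 5 probe sets, and none passed. The one with the highest mean, 1420932_at, read 8.17 and 8.24 with DMSO and 8.34 and 8.30 with GSI, a difference of 0.12 (SE 0.09). Of the other 4, a group of 3 was higher on both GSI arrays than on both DMSO arrays, by 0.41 to 0.46. Probe set 1457936_at read 6.00 and 6.16 with DMSO and 6.53 and 6.54 with GSI, a difference of 0.46 (SE 0.10). Probe set 1440856_at read 6.10 and 5.92 with DMSO and 6.43 and 6.41 with GSI, a difference of 0.41 (SE 0.10). In both, the GSI arrays lay close together and above DMSO. Probe set 1437045_at read 7.08 and 7.81 with DMSO and 7.90 and 7.91 with GSI, so that the distance to GSI came mostly from DMSO replicate 1. Its difference of 0.46 (SE 0.23) was 0.10 without that array and 0.82 without DMSO replicate 2. The fifth, 1420931_at, differed by 0.01 (SE 0.14), with overlapping groups.

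Mapk9, encoding JNK2, was nearly level. Its 3 probe sets differed by -0.01 (SE 0.09), -0.05 (SE 0.09) and 0.10 (SE 0.10). The first, 1421877_at, read 8.62 and 8.59 with DMSO and 8.60 and 8.58 with GSI, with overlapping groups. None of the 3 passed. The differences of Mapk8 and Mapk9 were 0.46 or smaller in every probe set.

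**Figure D2:**
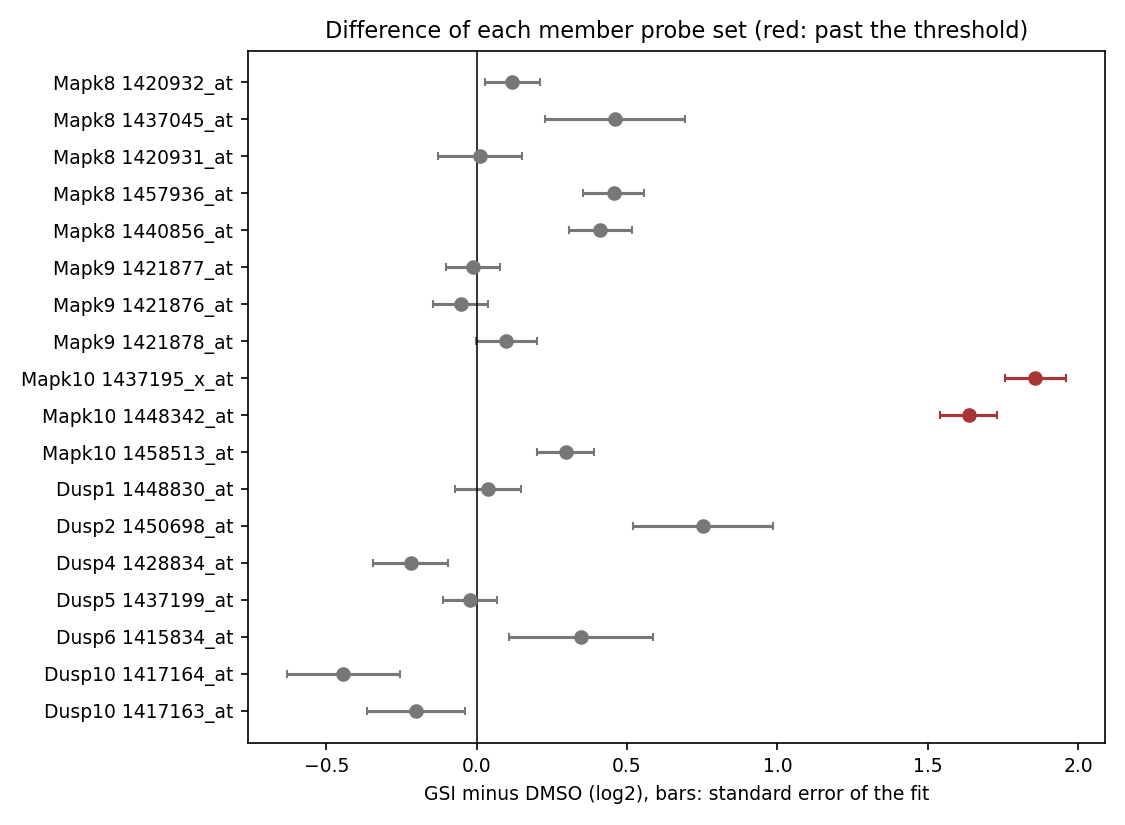
GSI minus DMSO difference (x axis, log2) of each member probe set, with the SE of the fit over all probe sets as bars; red marks the 2 that passed the threshold. The 2 bright Mapk10 probe sets lie at 1.86 and 1.64, and the next largest difference in size is that of Dusp2 at 0.75.

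All phosphatase differences were smaller than those of the 2 bright Mapk10 probe sets, and 0 of their 7 probe sets passed (limma). Dusp2 encodes PAC-1, a nuclear phosphatase of activated lymphocytes. It read 8.25 and 7.76 with DMSO and 9.03 and 8.49 with GSI, so both GSI arrays were above both DMSO arrays. The means were 8.00 ± 0.34 and 8.76 ± 0.38 (SD, n = 2), a difference of 0.75 (SE 0.23), or 1.68-fold. The spread within each group, 0.49 and 0.54 between arrays, was more than the distance of 0.24 between the lower GSI and the higher DMSO array. The difference was 0.51 without DMSO replicate 2 and 0.48 without GSI replicate 1, and 0.99 and 1.02 without the other array of each group.

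Dusp6 encodes a cytoplasmic phosphatase specific for ERK, and its transcript is widely used as a readout of ERK activity. It read 6.42 and 5.79 with DMSO and 6.66 and 6.25 with GSI, with overlapping groups and a difference of 0.35 (SE 0.24). That difference was 0.66 without DMSO replicate 1, 0.03 without DMSO replicate 2, 0.14 without GSI replicate 1 and 0.55 without GSI replicate 2. Dusp4 and Dusp5 encode nuclear phosphatases, the latter specific for ERK. Dusp4 read 6.11 and 5.88 with DMSO and 5.87 and 5.68 with GSI, a difference of -0.22 (SE 0.12), the groups being just 0.01 apart. It was -0.11 without DMSO replicate 1, -0.33 without DMSO replicate 2 and -0.13 without GSI replicate 2. Dusp5 was flat, at 5.75 and 5.76 with DMSO and 5.73 on both GSI arrays, a difference of -0.02 (SE 0.09).

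Dusp1 encodes MKP-1, an immediate-early phosphatase that acts on p38 and JNK. It read 7.42 and 7.45 with DMSO and 7.58 and 7.36 with GSI, with overlapping groups and a difference of 0.04 (SE 0.11). Dusp10 encodes MKP-5, which also prefers JNK and p38, and it had the lowest difference among the member genes. Probe set 1417164_at read 8.51 and 7.95 with DMSO and 7.84 and 7.73 with GSI, a difference of -0.44 (SE 0.19). The groups did not overlap, but DMSO replicate 1 stood 0.55 above DMSO replicate 2, and without it the difference was -0.17, against -0.72 without DMSO replicate 2. The second probe set, 1417163_at, read 6.21 and 5.76 with DMSO and 5.83 and 5.73 with GSI, a difference of -0.20 (SE 0.16) with overlapping groups, 0.02 without DMSO replicate 1 and -0.43 without DMSO replicate 2.

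The arrays numbered 1 and 2 also differed from each other in the phosphatases. In 5 of the 7 probe sets, those of Dusp2, Dusp4, Dusp6 and Dusp10, replicate 1 was the higher array in both groups. The gap was 0.49 and 0.54 for Dusp2 and 0.63 and 0.41 for Dusp6, in DMSO and GSI. Among the 11 JNK probe sets 2 had this order in both groups. Glycolysis genes ran the other way, 11 of 11 measured being higher on replicate 2 in both groups, by a median of 0.95 and 0.62. The labels do not say that a number marks a shared culture or day, and the part of this gap in the phosphatase values was not tested. Over all 18 members, the wider gap within a group was larger than the difference between groups in 10. None of these counts was made over all probe sets, so nothing particular to the members is read from them. Over all probe sets, same-numbered arrays deviated from their group means with a correlation of 0.07.

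**Figure D3:**
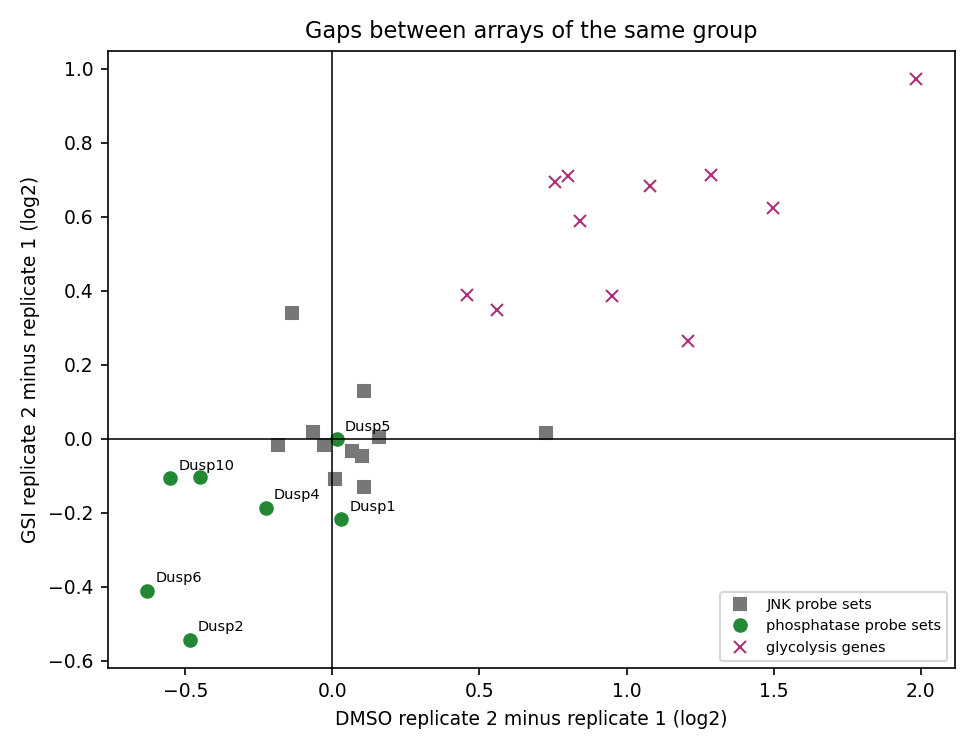
Replicate 2 minus replicate 1 (log2) within DMSO (x axis) and within GSI (y axis) for the 11 JNK probe sets (squares), the 7 phosphatase probe sets (circles) and 11 glycolysis genes (crosses). Dusp2, Dusp4, Dusp6 and Dusp10 lie at the lower left, and the glycolysis genes all lie at the upper right.

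Other genes of the MAP kinase pathways were read from 9 lists with 109 genes, of which 99 were measured, each by its 1-symbol probe set with the highest mean. In the gene-level fit 2 rose and 1 fell, or 3.03%, where of all 18193 genes 2.56% rose and 1.56% fell, 4.12% together. Their median difference was -0.01, as it was over all genes. With an unadjusted p below 0.05, 15 of the 99 were higher and 10 lower, and of all genes 10.8% were higher and 10.7% lower, the shares against which such counts below are to be read. All 3 that passed are transcription factor genes.

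Of 11 AP-1 genes and JNK substrates, Jund rose and Jun fell. Jund, encoding the AP-1 factor JunD, read 7.51 and 7.69 with DMSO and 9.39 and 9.18 with GSI, 3.21-fold higher (limma, adjusted p = 0.00402). Its dimmer probe set differed by -0.38 and did not pass in the fit of every probe set (limma, adjusted p = 0.123). Jun, encoding c-Jun, read 5.30 and 5.09 with DMSO and 4.51 and 4.57 with GSI, a difference of -0.66 (limma, adjusted p = 0.0326). Its other probe set differed by -1.96 in the fit of every probe set (limma, adjusted p = 0.00546), where the first did not pass (adjusted p = 0.0608). The GSI values of both Jun probe sets lay below the array medians, so their sizes are uncertain. Elk1, named after its values were seen, differed by 0.40 and did not pass (limma, adjusted p = 0.101). It passed as higher with dim probe sets left out.

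Of 14 feedback and response genes of ERK signalling 1 rose, the ETS factor gene Etv5. It read 6.87 and 6.51 with DMSO and 7.69 and 7.41 with GSI, a difference of 0.86 (limma, adjusted p = 0.0455). It did not pass in the fit of every probe set (limma, adjusted p = 0.0778) or as the mean of its probe sets (limma, adjusted p = 0.0632). In this list 2 were higher and 2 lower with an unadjusted p below 0.05, with a median of -0.06. Ier2, named after its values were seen, differed by -0.36 and did not pass (limma, adjusted p = 0.102). It passed as lower with dim probe sets left out and under a variance prior that follows intensity. The Jund, Jun and Etv5 calls, like those of Mapk10, were all lost when any 1 of the 4 arrays was left out. Such a fit leaves a single array in 1 group, and hardly any gene then passed, so the loss is not particular to these genes. Their differences stayed at 1.58 to 1.79 for Jund, -0.76 to -0.55 for Jun and 0.68 to 1.04 for Etv5.

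The other 7 lists held no gene that passed limma in the gene-level fit, though some did under other settings, as given with each gene. None passed in the fit of every probe set. With dim probe sets left out 14.4% of the 10973 remaining genes passed. The variance prior that follows intensity let 10.7% of all genes pass, against 4.12% in the gene-level fit. Of 18 kinases upstream of JNK 7 were higher and 1 lower with an unadjusted p below 0.05, with a median of 0.11. With each gene taken as the mean of its probe sets, 3 were higher and 1 lower (limma). By that measure 1740 of all 18193 genes were higher and 1890 lower. Tnik and Map4k5, kinases of the first tier, differed by 0.36 (limma, adjusted p = 0.0761) and 0.39 (adjusted p = 0.0851). Both passed with dim probe sets left out (limma, adjusted p = 0.0314 and 0.0377). As the mean of their probe sets they differed by 0.25 and 0.23 and did not pass (limma, adjusted p = 0.16 and 0.25). Map4k4, named after its values were seen, passed under the variance prior that follows intensity. Of 5 JNK scaffold genes, which hold JNK and its activators together, 0 had an unadjusted p below 0.05. Spag9 differed by 0.19 (limma, adjusted p = 0.319) and Mapk8ip2 by 0.07 (adjusted p = 0.697). Of 9 MAP kinase genes outside the JNK group 0 had an unadjusted p below 0.05. Mapk13 differed by -0.25 (limma, adjusted p = 0.26) and Mapk6 by -0.19 (adjusted p = 0.285).

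Of 16 other dual-specificity phosphatases 12 had lower means, and 2 were higher and 5 lower with an unadjusted p below 0.05. Dusp14 differed by -0.48 (limma, adjusted p = 0.0827) and Dusp22, known in T cells as JKAP, by -0.42 (adjusted p = 0.0963). With dim probe sets left out both passed (limma, adjusted p = 0.0388 and 0.0455), as did Dusp28, which was higher and is named after its values were seen. Under the prior that follows intensity Dusp14 passed too (limma, adjusted p = 0.0461). Of 5 other phosphatases of MAP kinases 0 had an unadjusted p below 0.05. Ptpn5 differed by -0.13 (limma, adjusted p = 0.48) and Ppm1b by 0.09 (adjusted p = 0.626).

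Of 13 Ras and ERK core genes 1 was higher and 0 lower with an unadjusted p below 0.05. That gene was Rasal3, encoding a Ras GTPase-activating protein of lymphocytes, at 0.58 (limma, adjusted p = 0.106), and under the prior that follows intensity it passed (adjusted p = 0.0276). Rasgrp1, which activates Ras downstream of the T cell receptor, differed by 0.21 (limma, adjusted p = 0.258). Of 8 genes of the p38 module 1 was higher and 1 lower with an unadjusted p below 0.05. Gadd45a, a stress gene whose product acts on kinases upstream of p38 and JNK, read 7.10 and 6.66 with DMSO and 8.59 and 7.85 with GSI. Its difference of 1.34 missed the threshold (limma, adjusted p = 0.0544), and replicate 1 was the higher array in both groups. It passed with arrays centred, under cyclic loess, under the prior that follows intensity, with dim probe sets left out and as the mean of probe sets (limma, adjusted p = 0.0272 to 0.0447). Mapkapk5, encoding a kinase activated by p38, differed by -0.21 (limma, adjusted p = 0.208).

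**Figure D4:**
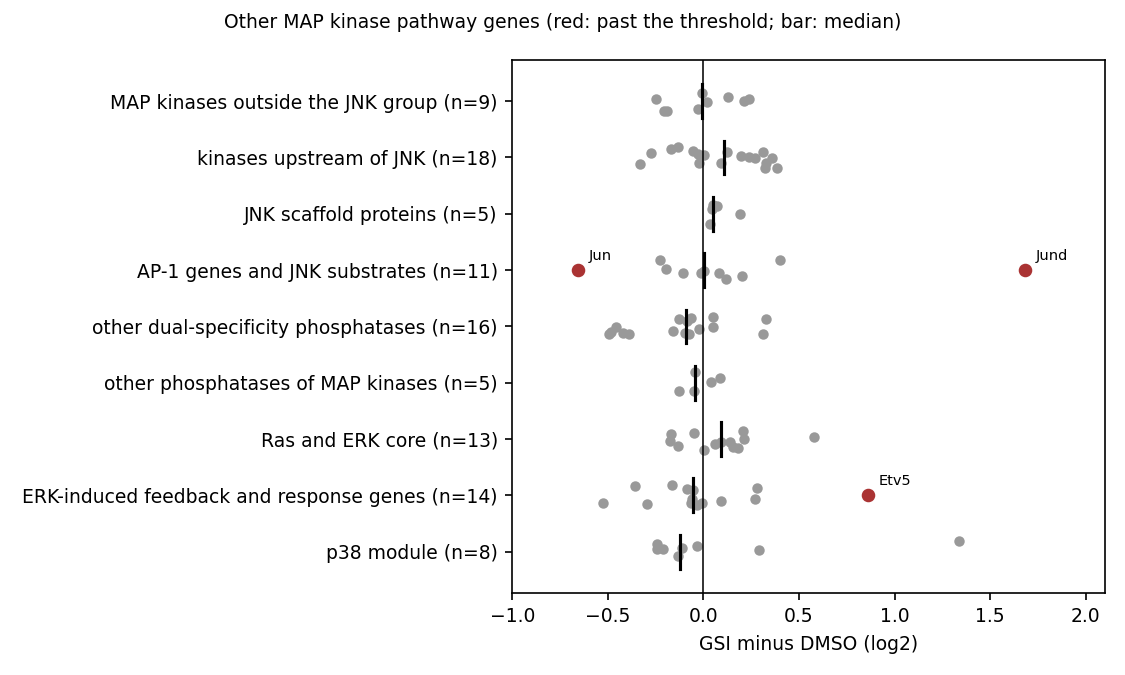
GSI minus DMSO difference (x axis, log2) of the 99 measured genes in 9 MAP kinase pathway lists (rows); grey points did not pass, red points did, and the bar is the list median. Jund at 1.68, Etv5 at 0.86 and Jun at -0.66 are red, and the grey point at 1.34 is Gadd45a.

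Likeness to Mapk10 was measured as the root mean square distance between profiles over the 4 arrays, each centred on its own mean. The 5 nearest of 18193 genes were Cadm1 (0.087), Cyp11a1 (0.12), Trav9d-3 (0.14), Rhbdl3 (0.15) and Ms4a4b (0.15), as log2 distances. Cadm1 encodes an adhesion molecule and Cyp11a1 the first enzyme of steroid synthesis. All 5 passed in the gene-level fit, with differences of 1.68 to 1.85, which follows from picking them by likeness to Mapk10. Dusp10, the member gene with the lowest difference, lay nearest to Stx1a (0.024), Bckdhb (0.032), 4930550C14Rik (0.050), Epb41l4a (0.050) and Pter (0.052). In each of these 5 genes DMSO replicate 1 stood above the other 3 arrays, as in Dusp10, and none passed. This too follows from the way they were picked. With 4 arrays such distances only describe the profiles.

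**Figure D5:**
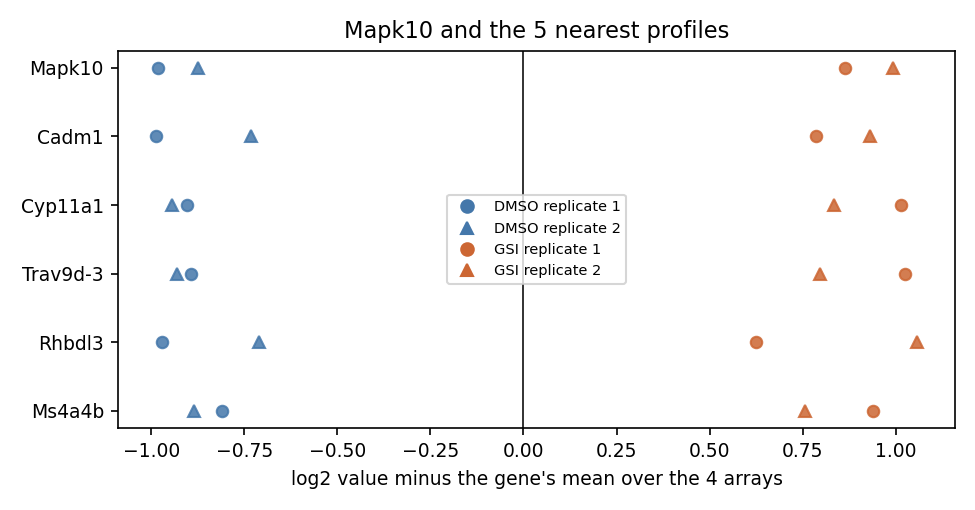
Log2 level minus the gene's own mean over the 4 arrays (x axis) for Mapk10 and the 5 genes with the nearest profiles (rows); colour gives the group and shape the replicate number. In each row both DMSO arrays lie on the left and both GSI arrays on the right of 0, which follows from picking genes by likeness to Mapk10.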

How the data were processed

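Expression was measured on 4 Affymetrix arrays. The deposited values were log2 expression per probe set made by the authors with RMA, per the submitters' processing notes; the RMA version was not given in the sources used here. RMA compresses differences of dim probe sets. The table held 45101 probe sets; 64 controls were left out. Of 45037, 34945 had 1 gene symbol, 932 several and 9160 none in the platform annotation. Symbols were updated through RefSeq (GRCm38.p6), which held 34741.

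Groups were compared with limma 3.58.1 in R 4.3.3 (lmFit, eBayes, group as the only term, two-sided, Benjamini-Hochberg adjustment): over 45037 probe sets for the 18 members, and over 18193 genes, each by its brightest 1-symbol probe set, for pathway lists. The scripts were tested on simulated data with 200 changed features. Over all probe sets, 0% of log2 changes of 0.5, 37.3% of 1 and 95.5% of 2 were recovered, and 2.22% of calls were false. With 1 probe set per gene, 2.99%, 79.1% and 100% were recovered, and 9.02% of calls were false. Precision is limited by 2 arrays per group.

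Members and lists were chosen with earlier results of these data known. All member probe sets were described; each pathway list gave up to 4 genes past the threshold, or the 2 with the smallest p; the members with the largest rise and fall gave the 5 nearest profiles. Listed genes that no 1-symbol probe set represented were not used here. Alternatives were median centring, cyclic loess, an intensity trend with robust prior, dim probe sets left out, a 2-fold minimum, the replicate number as a block, other ways of picking probe sets, and each array left out.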

Additional observations from a re-analysis of the deposited data

How the results depend on the processing

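For the 18 member probe sets, median centring, cyclic loess, the trend and robust prior, the dim filter, the 2-fold minimum and the replicate block each gave 2 higher and 0 lower calls in limma, those of Mapk10. Over all probe sets these settings were not equally strict. The replicate block called 0.144% and the 2-fold minimum 0.688%, against 1.39% in the main fit over all probe sets. Median centring called 2.03%, the trend and robust prior 5.27%, and the dim filter 6.91% of 22519. The share under cyclic loess lay between those of the main fit and median centring. With 1 probe set per gene there was 1 member call, and 4.12% of all genes were called. Leaving out an array lost the 2 Mapk10 calls in each case. Such a fit leaves a single array in 1 group, and no probe set of any gene then passed. The sign turned for 1 probe set each of Dusp1, Dusp10, Mapk8 and Mapk9, none of them called with all arrays. Of 99 pathway genes, 2 were higher and 1 lower. The trend and robust prior gave 5 higher and 3 lower, and leaving out dim probe sets 7 higher and 3 lower among 77 genes. Over all genes these settings called 10.7% of 18193 and 14.4% of 10973, against 4.12% in the gene-level fit. The 2-fold minimum and the fit of every probe set each gave 1 higher and 0 lower. Over all genes these 2 settings called 0.973% and 1.86%, and the replicate block called 1.19%. With the replicate number as a block 0 were lower, since Jun was lost (limma, adjusted p = 0.0969), while Gadd45a was gained (adjusted p = 0.0384), and 7 lower at an unadjusted p under 0.05. Same-numbered arrays deviated from their group means with a correlation of 0.07 over all probe sets, and the labels do not pair them, although the glycolysis genes and several phosphatases differed between the numbers in the same direction in both groups. Leaving out an array lost the pathway calls too, in fits where a single array stood for 1 group and hardly any gene passed. The cause of these changes was not tested. Dim signals, with 1 of 18 member probe sets below the array medians, and 2 arrays per group limit the precision.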
